A study of Rattus norvegicus with 18 samples.

Results

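Among bacterial sequence features of rat gut samples titled stool microbiome, 136 were present in untreated rats and had no count in any treated rat. They were the features counted in at least 2 of the 6 Control libraries and at 0 in all 6 TG libraries. They made up 136 of the 378 features found in at least 2 Control libraries (36.0%) and 136 of 8405 features in the whole table. Each is called a member here and is numbered by its mean share of counts in Control, from member 1, the highest, to member 136. Control and TG counts chose the members, so their presence in Control and absence from TG are descriptions without a test. Only the Model libraries lie outside that choice.

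The libraries were made by amplifying variable regions of the 16S rRNA gene, a ribosomal gene that all bacteria carry and whose variable stretches differ between kinds of bacteria. All rats were wild-type, and each group held 6 libraries under the same batch label. Control rats were untreated, Model rats had radiation enteritis, an inflammation of the bowel after irradiation, and TG rats, whose group is labelled TCM treatment, received a therapeutic intervention. The agent behind TG, whether TG rats were irradiated, and the strain, age, radiation dose and sampling time are left unstated by the labels. The libraries are described as biological replicates with no animal named for each, so p-values measure only the spread between these libraries, which may be partly technical.

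A gut community usually holds a few abundant bacteria shared by most animals and a long list of scarce ones that differ between animals, even within one cage. Scarce residents can be lost when the habitat changes, and they can also go unseen when a library is not deep enough. Irradiation damages the dividing cells of the intestinal lining and is known to alter the resident bacteria. A count table gives shares, so fewer cells of one organism and more cells of all others cannot be told apart, and organisms carry different numbers of 16S gene copies. The count table and the deposited taxonomy use different identifiers and share 0 of them, so no member is given a bacterial name, and no sequence is printed.

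The members were a small and scattered part of the Control communities. Together they held 5.24% ± 1.41 (SD, n = 6) of Control counts, with a lowest library of 2.83% (Control 3), a median of 5.60% and a highest of 6.75% (Control 1). The other 242 features found in at least 2 Control libraries held 83.6% on average. Each Control library contained 40 to 68 members, a mean of 55.7 ± 9.05 (SD, n = 6). Control 3 had the fewest members although it tied with Control 6 for the most features of the wider set of 378, at 207 each. No member was found in all 6 Control libraries. Of the 136, 93 were found in 2 of them, 27 in 3, 13 in 4 and 3 in 5, and the last were members 3, 10 and 20.

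**Figure D1:**
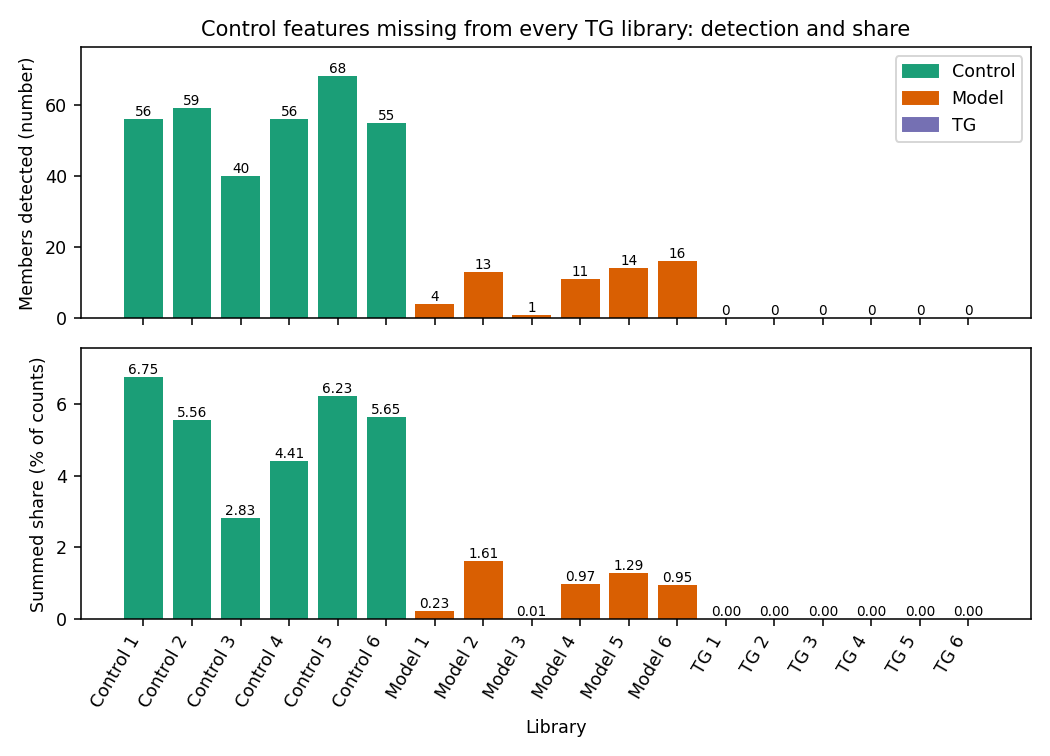
Number of the 136 members detected (upper panel) and their summed share of counts in percent (lower panel), 1 bar per library, with colours for Control, Model and TG. Control libraries hold 40 to 68 members, Model libraries 1 to 16, and TG libraries 0 by the choice of members.

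Within Control a member was either clearly present or not counted. Of the 816 values that 136 members give in 6 Control libraries, 482 (59.1%) were 0. The 334 values above 0 had a median of 26.5 counts, quartiles of 14 and 45, and a highest value of 559. Only 10 of the 334 were 3 counts or fewer. For the 242 features that also had TG counts, 43.1% of Control values were 0 and the median of the others was 41 counts. Of their 826 values above 0, 15 were 3 counts or fewer, so this pattern was not particular to members. Absence from a single library was therefore common for members in untreated rats too.

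Most members were scarce. The median of their mean Control shares was 0.0271%, with quartiles of 0.0159% and 0.0483% and a range of 0.00232% to 0.340%. A mean of at least 0.1% was reached by 6 members, against 65 of the 242 features with TG counts. The 10 most abundant members carried 26.6% of the members' summed Control share and the first 50 carried 68.5%.

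Member 1, feature 18eadedf2a9e0caf1ae9341d79fa9cb6, had 559 counts in Control 1, 143 in Control 2, 45 in Control 3 and 0 in the other Control libraries and all Model libraries. Its mean of 0.340% ± 0.612 (SD, n = 6) rested on Control 1, where it held 1.56%, and was 0.0972% without that library. Member 2 had 194 counts in Control 2, 144 in Control 5, 81 in Control 1, 26 in Control 4 and 25 in Model 2, and was at 0 elsewhere. These leading members were thus unevenly spread, and neither was counted in Control 6.

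Member 3 was the most abundant of the members found in 5 Control libraries. It had 28, 73, 45, 96 and 65 counts in Control 1, 2, 3, 4 and 6, 0 in Control 5, and 0 in every Model library. Member 10 had 25, 16, 65, 25 and 70 counts in Control 2 to Control 6 and 0 in Control 1. Member 20 had 39, 48, 12 and 43 counts in Control 1 to Control 4, 5 in Control 6 and 0 in Control 5. These 3 widespread members were all at 0 in the 6 Model libraries. The 13 features that were also found in 5 Control libraries but had TG counts were each found in at least 1 Model library.

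Of members 4 to 9, member 4 and member 9 also had no Model count. Member 4 had 88, 82 and 114 counts in Control 1, 4 and 5, and member 9 had 84, 74, 23 and 25 in Control 3 to Control 6. Member 5 had 54 to 85 counts in 4 Control libraries and 42 in Model 6, and member 6 had 66 to 94 in 3 Control libraries and 34 in Model 4. Members 7 and 8 kept more in Model: member 7 had 8 to 86 counts in 4 Control libraries, 68 in Model 4 and 11 in Model 6. Member 8 had 35, 48 and 116 counts in Control 2, 4 and 6 and 43, 25 and 42 in Model 2, 4 and 6. Members 5 to 8 were thus counted in 1 to 3 Model libraries, at counts below their highest Control value, and were at 0 in the others.

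**Figure D2:**
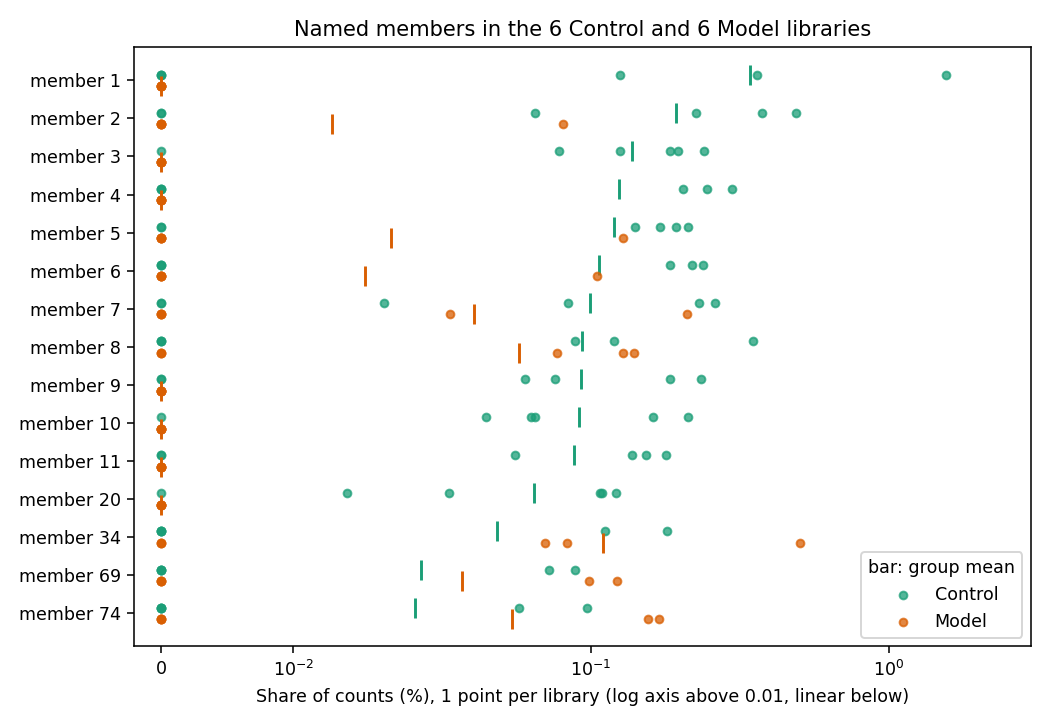
Share of counts in percent of the 15 named members, 1 point per library for the 6 Control and 6 Model libraries, with a bar at each group mean; the axis is logarithmic above 0.01 and linear below. Points at 0 show how often a member is missing even within Control, and members 1, 3, 4, 9, 10, 11 and 20 are at 0 in all Model libraries.

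The depth of the TG libraries sets how far down an absence can be read. A count of 0 in a single library allows a share of up to 3 counts of its total, which covers counting error only. That floor was 0.00746% to 0.00907% in the Control libraries, 0.00900% to 0.00969% in the Model libraries and 0.00739% to 0.0126% in the TG libraries. By library it was 0.0119% in TG 1, 0.0126% in TG 2, 0.00958% in TG 3, 0.0106% in TG 4, 0.00739% in TG 5 and 0.0108% in TG 6. Totals were 33076 to 40192 counts in Control, 30958 to 33342 in Model and 23894 to 40575 in TG. The 6 TG libraries summed to 177025 counts, so 0 counts in all of them allows a mean share of up to 0.00169%. Amplified reads that carry no molecular identifier do not each stand for a separate molecule, and the floors do not cover loss during amplification or denoising.

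Every one of the 136 members had a mean Control share above the floor of the summed TG libraries. At its Control share a member would have given 4.11 to 602 counts over the TG libraries, with a median of 47.9. With a floor of 10 counts, 133 members stayed above it. Against single TG libraries fewer did: 116 of 136 were above the floor of TG 2, the shallowest, and 128 were above that of TG 5, the deepest. For the 20 members below the floor of TG 2, a 0 in that library alone says little. A single 0 was common above the floor too. By the same measure, Control libraries were deep enough for 124 to 128 members, yet each contained 40 to 68. TG 5 held 276 features of any kind, while the other TG libraries held 844 to 1078. Without TG 5 the same choice gave 145 features.

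**Figure D3:**
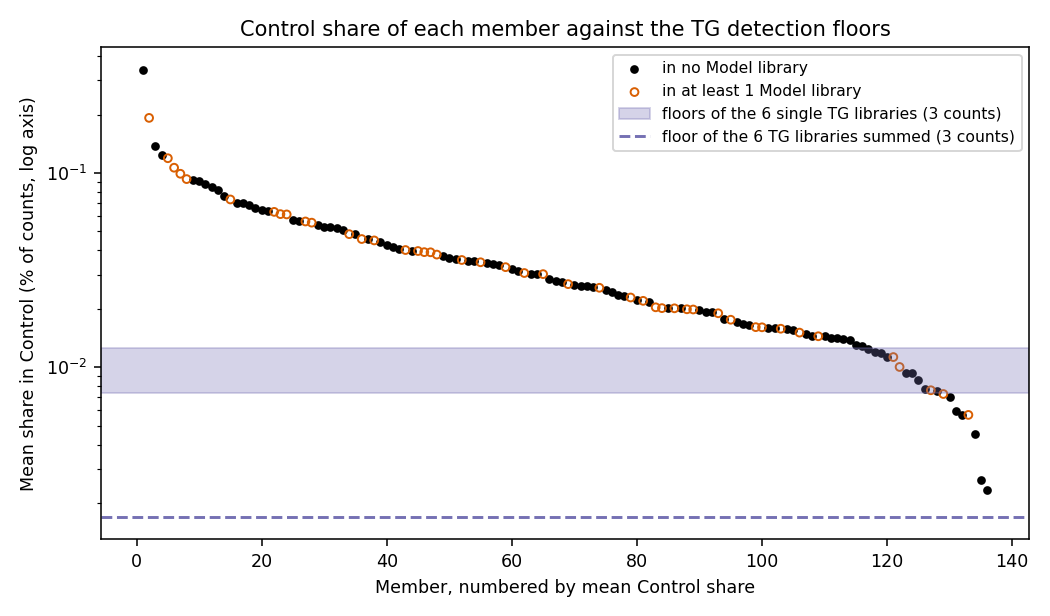
Mean share in Control (percent of counts, log axis) of each of the 136 members, ordered by that share; filled points are members in no Model library and open points members in at least 1. The band spans the floors of the 6 single TG libraries, 0.00739% to 0.0126%, and the dashed line is the floor of the summed TG libraries, 0.00169%, below all members.

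Set against that summed floor, member 1 was at least 201-fold lower in TG than in Control, or at least 57.3-fold without Control 1. Member 2 was at least 113-fold lower and member 3 at least 80.9-fold lower. Over all members these lower bounds ran from 1.37-fold to 201-fold with a median of 16.0-fold. Without each member's highest Control library the median bound was 7.28-fold, and for the scarcest member no bound above 1 remained (0.613). A bound of at least 10-fold held for 96 members and one of at least 2-fold for 134. These bounds restate the choice of members in terms of depth and are no test of it.

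Model libraries kept a minority of the members. Any Model count was found for 45 of 136 members (33.1%), and 91 (66.9%) were at 0 in all 6 Model libraries. The members' summed share in Model was 0.843% ± 0.616 (SD, n = 6), which is 16.1% of the Control mean, with a median of 0.963%. The number of members was 4 in Model 1, 13 in Model 2, 1 in Model 3, 11 in Model 4, 14 in Model 5 and 16 in Model 6. Their shares ran from 0.00600% in Model 3 to 1.61% in Model 2, and the highest Model library lay below the lowest Control library, at 2.83%. Because members were chosen for being present in Control, their mean there is raised by the choice, and the gap between the groups was given no test.

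The Model libraries with the fewest members were also those with the fewest features of any kind. Model 3 held 198 features in all and Model 1 held 278, while the other Model libraries held 708 to 971. Of the 242 Control features with TG counts, Model 1 and Model 3 still contained 62 and 74, and the other Model libraries 98 to 152. Model 3 contained a single member, member 43, with 2 counts, which is below the floor. Leaving out Model 1 and Model 3, 42 members were still found in Model. The part of low feature numbers in the loss of members was not tested.

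Members were missing from Model more often than other Control features of the same spread. A Model library contained on average 7.23% of the members and 45.2% of the 242 Control features with TG counts, whereas a Control library contained 40.9% and 56.9%. Among features found in exactly 2 Control libraries, 30 of 93 members (32.3%) and 82 of 102 others (80.4%) were found in Model. Among those found in 3 the numbers were 7 of 27 members and 45 of 49 others, and among those found in 4 they were 8 of 13 and 27 of 29. Grouping by level gave the same order: between 0.01% and 0.03% of Control counts, 18 of 57 members and 67 of 79 others were found in Model. Between 0.03% and 0.1% these were 21 of 59 and 74 of 85. These are descriptions of the features and not a test over rats, and the others were chosen by their TG counts. Both sets were chosen for counts in at least 2 Control libraries, which raises their detection in Control but not in Model.

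**Figure D4:**
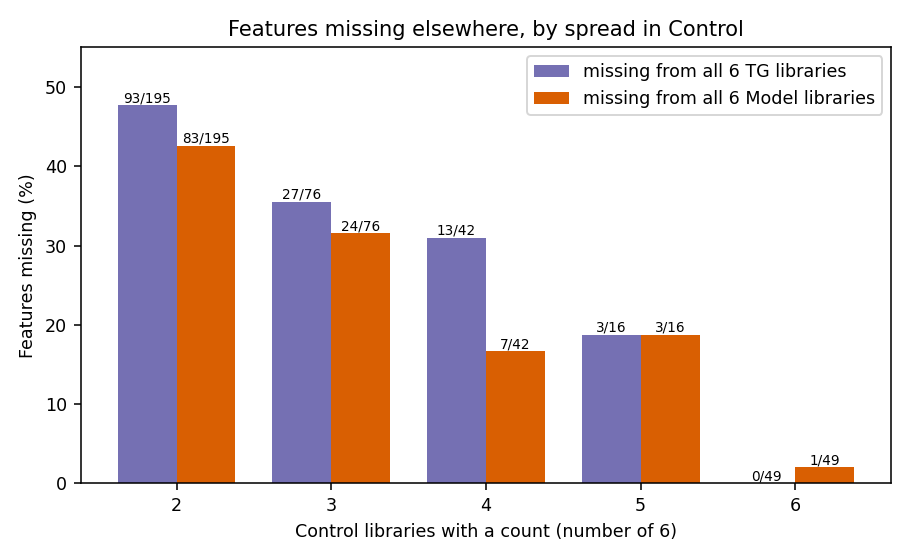
Percent of Control features missing from all 6 TG libraries (members) and from all 6 Model libraries, by the number of Control libraries with a count; labels give features missing over all features of that class. The percent missing from TG falls from 47.7 among features in 2 Control libraries to 0 among the 49 found in all 6.

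How widely a feature was spread in Control went with whether TG lacked it. Members were 93 of 195 features found in 2 Control libraries (47.7%), 27 of 76 in 3 (35.5%), 13 of 42 in 4 (31.0%), 3 of 16 in 5 (18.8%) and 0 of 49 in all 6. The same classes were missing from every Model library in 83, 24, 7, 3 and 1 cases. By level, 1 of 35 features with a mean Control share of at least 0.3% was a member, 5 of 36 between 0.1% and 0.3%, and 59 of 144 between 0.03% and 0.1%. Features shared by all untreated rats and the most abundant features were thus rarely or never among the members. Control spread and TG absence both entered the choice, so this is a description. The share missing from every Model library also went from 42.6% of features in 2 Control libraries to 2.04% in all 6, so the pattern was not particular to TG.

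The members that Model kept were mostly kept by a single library. Of the 45, 34 were found in 1 Model library, 8 in 2 and 3 in 3, and none in more. Those found in 1 library came from Model 6 in 10 cases, Model 2 and Model 5 in 9 each, Model 4 in 3, Model 1 in 2 and Model 3 in 1. The 59 Model values above 0 had a median of 23 counts and a highest value of 156, near the 26.5 counts of the Control values above 0. Kept members had a median mean Control share of 0.0306% and members absent from Model one of 0.0262%. The 45 kept members summed to 1.83% of Control counts and 0.843% of Model counts, and the 91 absent members to 3.40% of Control counts.

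Of the 45 kept members, 40 had a lower mean in Model than in Control and 5 a higher one. The choice of members raises their Control mean, so this split is no sign of a fall. Member 34 had the highest Model mean, with 156 counts in Model 2, 27 in Model 4 and 23 in Model 6, against 40 and 69 counts in Control 1 and Control 5. Its Model mean of 0.110% was 0.0307% without Model 2, and its Control mean was 0.0484%. Member 74 had 48 and 55 counts in Model 2 and Model 4 and 22 and 32 in Control 5 and Control 6. Member 69 had 32 and 39 counts in Model 4 and Model 5 and 26 and 34 in Control 1 and Control 5. Counts of members 34 and 69 overlapped between the libraries of the 2 groups that had them, and those of member 74 were higher in Model.

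**Figure D5:**
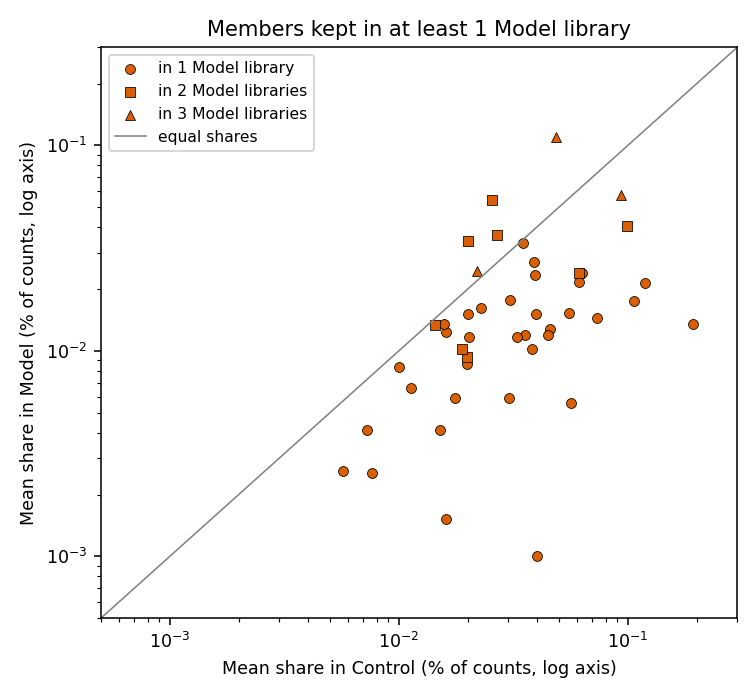
Mean share in Control against mean share in Model (percent of counts, both axes logarithmic) for the 45 members found in at least 1 Model library, with symbols for the number of Model libraries and a line of equal shares. Of these members 40 lie below the line and 5 above it.

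The fit across all features could test few members, because most are too sparse. Counts were fitted with edgeR's quasi-likelihood test over all 18 libraries, for the 431 features that reached 10 counts in 4 or more libraries. That filter passed 21 of 136 members. For Model against Control, 115 of 431 features were called at an adjusted p under 0.05, which is 26.7%, and 12 of 431 (2.78%) were called lower in Model. Of the 21 members, 5 were called, all lower in Model: members 3, 9, 10, 11 and 20. All 5 had no Model count and passed the filter through Control libraries alone, and Control counts had also chosen them. A lower fitted value in Model was thus fixed in advance, though a call was not. Their calls are therefore a description, and no p-value is given for them.

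Member 3 had 0.137% ± 0.0878 (SD, n = 6) of Control counts and was at least 88.6-fold lower in Model, against a floor of 3 counts over the 193760 Model counts. Members 9, 10 and 11 were at least 59.6-fold, 58.8-fold and 56.4-fold lower, and member 20 at least 41.5-fold lower. Without each member's highest Control library the bounds were 75.4, 41.3, 43.2, 44.6 and 34.1 for members 3, 9, 10, 11 and 20. The choice of members raises their Control means and the floor covers counting error only, so these bounds are no test. Member 11 had 55, 20, 55 and 59 counts in Control 1, 3, 4 and 6. Each was counted in 4 or 5 of 6 Control libraries and in 0 of 6 Model libraries. Leaving out Control 2 or Control 4 left 0 calls among 16 and 14 members tested, and leaving out Control 1, 3, 5 or 6 left 1 call, member 3, among 14 to 17. Members 9, 11 and 20 reach 10 counts in 4 Control libraries only, so some of these fits no longer tested them. The fitted log2 fold change of member 3 was -8.57 with all libraries and -8.45 and -8.38 without Control 2 and Control 4, values that depend on the prior count because Model is at 0. Over all features, leaving out 1 Control library took the calls from 115 to between 24 and 31, of 410 to 418 tested. Called lower were 3, 1, 3, 0, 5 and 1 of these features without Control 1, 2, 3, 4, 5 and 6. Leaving out Model 2 gave 7 calls among 20 members tested, beside 96 of 390 features called, 13 of them lower. Without Model 6 there were 7 among 20 members, beside 126 of 411 features called, 20 of them lower. With any count in at least 2 libraries as the filter, all 136 members were tested and 1 was called lower, member 1, while 1 of 1057 features (0.0946%) was called lower.

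The other 16 members tested were counted in Model and were not called. Their log2 fold changes for Model against Control included -4.37 for member 2 (SE 2.42, edgeR adjusted p = 0.200), -2.80 for member 5 (SE 2.38, edgeR adjusted p = 0.565) and 0.50 for member 34 (SE 2.21, edgeR adjusted p = 0.947). The median log2 fold change of all 431 features in this fit was 0.77, and 1.33 with RLE factors, so a value of 0 is not the centre of the features tested. Member 2 was called without Model 2 and member 5 without Model 6, the only Model library in which each had a count, so these calls too are against a group at 0.

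For TG against Model, edgeR called 6 of 431 features (1.39%) and 0 of the 21 members tested. At an unadjusted edgeR p under 0.05 were 16 of these members and 44 of the 431 features. DESeq2 also called 0 members, and 7 members had no adjusted p. Its unadjusted p was under 0.05 for 6 members and 38 of 431 features. With any count in at least 2 libraries as the filter, edgeR called 0 of 136 members, while 6 of 1057 features (0.568%) were called lower. With that filter, 41 of 136 members and 317 of 1057 features were at an unadjusted edgeR p under 0.05. These shares are not comparable, because 91 of the 136 members were at 0 in both groups and could not differ. The 41 were thus among the 45 members with a Model count, whose TG counts of 0 were set by the choice. Of the 21 members passing the first filter, the 5 without Model counts are at 0 in both groups, and the TG counts of 0 had chosen all 21. For TG against Control, the contrast that chose the members, edgeR called 159 of 431 features (36.9%), 36 of them lower in TG (8.35%), and all 21 members tested were among the lower ones. With the wider filter 5 of 136 members were among the 15 of 1057 features (1.42%) called lower. Each count restates the choice.

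The same choice made between other groups also found features, in both directions. It gave 118 features found in at least 2 Control libraries and in no Model library, and 233 found in at least 2 TG libraries and in no Control library. There were 163 for Model without Control, 110 for TG without Model and 55 for Model without TG. As a share of the features found in at least 2 libraries of the first group, these were 31.2%, 44.7%, 37.6%, 21.1% and 12.7%, beside 36.0% for the members. Features of TG without Control held 24.7% ± 7.18 (SD, n = 6) of TG counts, and those of Control without Model 4.29% ± 1.06 (SD, n = 6) of Control counts. Several of these numbers share the Control libraries, and they were not tested against each other. At an equal depth of 23894 counts the members numbered 135 (mean of 20 draws). Such draws only remove counts, so a feature that a TG library missed for lack of depth could not reappear in it. Members had a median of 26.5 counts in the Control libraries that held them, so few were likely to drop out. A number near that of the full counts was thus largely set in advance. The part of unequal totals in the number was not tested by these draws.

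No feature lay just outside the choice by 1 to 3 TG counts. The nearest had 4 counts summed over TG, followed by features with 6 and 7, and 12 of the 242 had at most 10. That nearest feature, named after its values were seen, had 1 to 10 counts in 4 Control libraries and 6 to 52 in all 6 Model libraries. Just inside, the scarcest members were members 136, 135 and 134, with 5, 6 and 10 counts summed over 2 Control libraries each. Of the 242, 62 had counts in a single TG library and 32 in all 6, so for 62 features 1 library kept them from being members.

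Many members shared their pattern across libraries. Members were joined by average linkage at a mean correlation of at least 0.9 between square-root shares across the 12 libraries of Control and Model. Single pairs could lie lower, such as 0.864 in the set led by member 19. The 136 members fell into 72 sets, of which 50 held 1 member and 22 held 86 together. The largest held 9 members, led by member 19, all counted in Control 4 and Control 5 only. The next held 8, led by member 25, all counted in Control 2 and Control 5 only. Since 93 members had counts in just 2 Control libraries, presence in the same pair of libraries alone gives a high correlation, and whether a set comes from one organism was not tested.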

How the data were processed

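The authors deposited raw counts for 8405 features and 18 libraries, in a text export of a BIOM file according to its header line. Reads had been denoised and clustered, per the series text. Tools, amplified region, chimera removal and filters, not given in the sources used here, decide how many features an organism yields and how low a count survives. Counts were not rarefied. The deposited taxonomy was not used, because it shares 0 identifiers with the counts.

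Shares are counts over the library total. The floor is 3 counts of a library's or a group's total. The count model was edgeR 4.0.16 under R 4.3.3 (TMM factors, glmQLFit, glmQLFTest, 3 groups, Benjamini-Hochberg adjustment over 431 features). The SE is the log2 fold change over the root of the F statistic. DESeq2 1.42.0 was an alternative. The fit was tested on simulated data. Shares, floors and figures were computed in Python 3.11.15 with pandas 2.3.3, scipy 1.17.1, matplotlib 3.10.9 and numpy 2.4.6. Alternatives were other filters and scalings, equal depth, other minimum library numbers and each library left out. Named are members 1 to 10, the 5 with the highest Model mean, and members called in Model against Control or TG against Model. Members and lists were chosen with earlier results of these data known.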

Additional observations from a re-analysis of the deposited data

Results flagged for a closer look

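Of 36 sets of 6 libraries examined, 8 had a library far from the others. The limit used marks about 1 in 20 by chance only for normally distributed values. Many of these sets are shares with many zeros, so that rate does not apply to them. TG 5 held 276 features, against 844 in the nearest TG library. Member 1 held 1.56% in Control 1, against 0.361% in the nearest Control library, and member 8 held 0.351% in Control 6, against 0.119%. In Model, member 34 held 0.504% in Model 2, against 0.0832% in the nearest library, and member 7 held 0.209% in Model 4, against 0.0336%. Members 2, 5 and 6 had counts in a single Model library, with 0.0808% in Model 2, 0.128% in Model 6 and 0.105% in Model 4; a value present in 1 of 6 libraries is always marked this way. Their causes were not tested.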

How the results depend on the processing

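The number of members was 2286 when 1 Control library sufficed, 43 when 3 were needed, and 91 (without Control 5) to 154 (without TG 1) with 1 library left out. Members kept in Model numbered 11 when 2 Model libraries were needed and 35 to 44 with 1 left out. For Model against Control, calls among members were 5, or 1 with either wider filter (any count, or 3 counts, in 2 samples), in both cases member 1. With 1 library left out they were 0 to 7, beside 24 to 131 calls over all features, of which 0 to 20 were lower. For TG against Control, calls among members were 21 of 21 tested, 5 of 136 and 5 of 135 with the wider filters, and 10 of 10 with the compared groups alone. With the replicate number as a block, calls among members were 0 in both comparisons. The labels do not say whether the replicate numbers pair the rats, and weak correlations cannot settle it. Deviations of same-numbered libraries correlated over 0.1 in 4 of 18 pairs. Only 1 of 18 libraries was closest to its own number in both other groups. For TG against Model no alternative called a member, and a fit of those groups alone left none to test. Over all features, the 115 calls for Model against Control were 26 with any count, 58 by DESeq2, 40 with the compared groups alone and 20 with the replicate block; the 159 for TG against Control were 62, 90, 82 and 50; the 6 for TG against Model were 0 with RLE factors and 10 by DESeq2. Log2 fold changes for Model against Control that changed sign, none of them called, were those of member 8 (-1.22 to 0.11 with 1 library left out, above 0 without Control 6), member 34 (-0.88 to 2.12, below 0 without Model 2) and member 69 (-0.20 to 0.94, below 0 without Control 3 or 4, and -0.028 with the replicate block). The cause was not tested. Alternatives without TG 5, Model 1 and Model 3, with a floor of 10 counts and with a correlation limit of 0.8 (49 sets) were chosen after seeing the data and kept each number within 1.5 times. Depth limits single-library zeros most in TG 2.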

Other observations

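Control libraries also held many features that no other untreated rat shared. Of 2359 features counted in exactly 1 Control library, 2150 had no TG count and 2085 of these (97.0%) had no Model count either. They were scarcer than the members, with a median of 4 counts, and held 4.96% to 11.6% of counts in a Control library.

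Pairs of Control libraries shared 12 to 25 members. Control 2 and Control 4, and Control 5 and Control 6, shared the most, 25 each. Among members found in exactly 2 Control libraries, 11 were shared by Control 1 and Control 5, 11 by Control 5 and Control 6, and 0 by Control 4 and Control 6. Control 5 held 45 of these 93 members and Control 3 held 19.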
